A study of Ovis aries with 6 samples.

Results

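Heterotrimeric G protein signalling was described here through 63 genes, chosen by symbol from the 26067 measured features of a full-length RNA survey of sheep (Ovis aries). They were 12 G protein alpha subunit genes, 5 beta and 11 gamma subunit genes, 10 adenylyl cyclase genes, 4 phospholipase C beta genes and 21 genes for regulators of G protein signalling (RGS). Complementary DNA of 6 libraries, all labelled as pituitary, was amplified and read on Oxford Nanopore devices. According to the series design, 3 sheep of the small-tailed Han breed formed a high-reproduction group and 3 Wadi sheep a low-reproduction group, all described as healthy, and the labels name no treatment, age, sex or pooling. None of the libraries, C1 to C6, carries a breed in its labels, so breeds were not compared and each library stands by itself, with no replicates. Values given as a run of 6 are in the order C1 to C6.

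A G protein is a switch made of an alpha subunit, which binds a guanine nucleotide, and a dimer of a beta and a gamma subunit. An activated receptor makes the alpha subunit exchange GDP for GTP, after which both parts act on effectors such as adenylyl cyclases, which make cyclic AMP, and phospholipase C beta enzymes, which release inositol trisphosphate and raise calcium. RGS proteins speed up the hydrolysis of GTP and so shorten the signal. In the pituitary, the releasing hormones of the hypothalamus act through such receptors: gonadotropin- and thyrotropin-releasing hormone mainly through Gq, growth hormone-releasing hormone through Gs, and somatostatin and dopamine through Gi and Go.

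The libraries held between 1981644 and 2732911 gene counts, so 1 count was worth 0.366 to 0.505 CPM (counts per 1000000 gene counts). They did not look alike in tissue markers. The 7 pituitary hormone genes (PRL, GH, CGA, LHB, FSHB, TSHB and POMC) took 14.2, 29.97 and 4.71% of the counts in C4, C5 and C6 but 0.0139, 0.00472 and 0.00503% in C1, C2 and C3. In the latter, TSHB and the pituitary transcription factor gene POU1F1 had 0 counts. All 8 markers of cerebellar granule neurons had C1, C2 and C3 as their 3 highest libraries, with a summed level of 4546 to 5017 CPM there against 137 to 421 CPM in the others. Of 7 Purkinje cell markers 6 had the same order. The markers of hormone cells thus go against the pituitary label in C1, C2 and C3. Counts of genes that differed are therefore also given within C1, C2 and C3 and within C4, C5 and C6. In whole tissue, fewer cells of a type and less RNA per cell cannot be told apart.

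**Figure D1:**
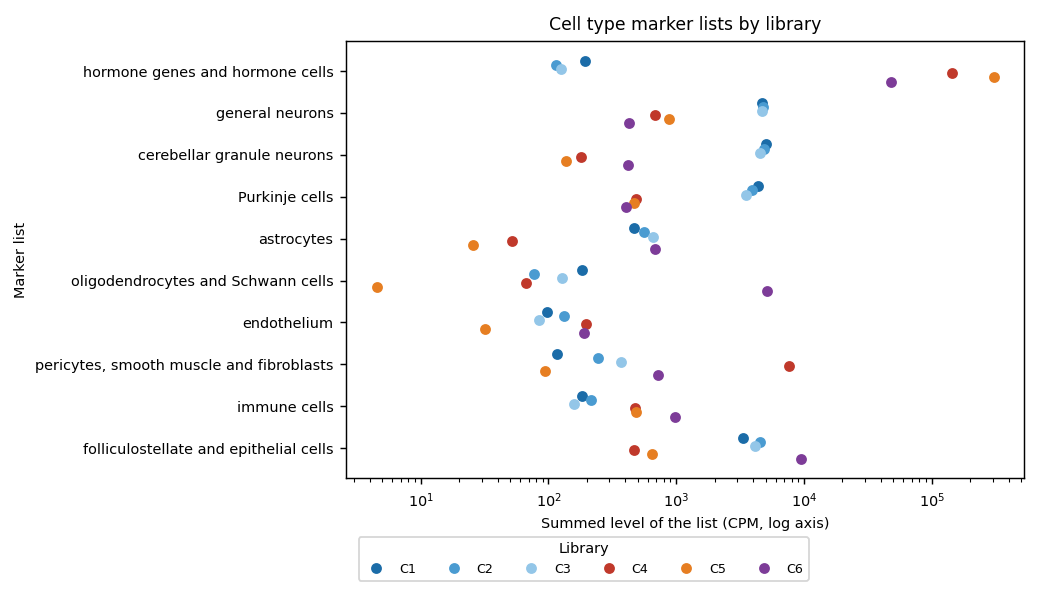
Summed level of 10 cell type marker lists in each library, in CPM on a log axis; each point is 1 library. Hormone cell markers lie between 47655 and 304448 CPM in C4, C5 and C6 and at or under 195 CPM in C1, C2 and C3; pericyte, smooth muscle and fibroblast markers are highest in C4, and oligodendrocyte and Schwann cell markers in C6.

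Of the 63 genes, 43 had at least 60 counts over the libraries and were tested, each by a chi-square test of its counts against the library totals, with Benjamini-Hochberg adjustment over all 13248 features tested. The test asks whether these libraries differ beyond counting error, and says nothing of breeds. A gene was called when its highest library was also 2 times or more its lowest one, and 41 of the 43 genes differed in this way, in a table where 80.9% of all features tested did. The largest adjusted p among the 41 was 0.0154. The median ratio was 6.75, against 4.31 over all features tested. A ratio of at least 10 was reached by 14 of the 43, where 25.9% of all features reached it. A gene that reached 60 counts mainly through 1 library, as GNG8 did, had to differ, so these counts describe the tested genes and not all 63. Of the 20 genes under 60 counts, 17 had at most 10 counts in every library and 3 of these had none at all.

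In 17 of the 43 genes the 3 highest libraries were C1, C2 and C3, an order found in 38.8% of all features tested. The order with C4, C5 and C6 highest was found in 11 genes, against 22.8% of all features. The other 15 had neither order. Both shares among the 43 genes were near those of the whole table, so neither count is a result about these genes. Among C1, C2 and C3 alone 6 of 37 tested genes differed (10.3% of all features did), and among C4, C5 and C6 alone 18 of 33 (40.2% of all features).

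The 17 genes with C1, C2 and C3 highest were GNAQ, GNAO1, GNAZ, GNB2, GNB5, GNG3, GNG13, ADCY1, ADCY3, ADCY9, PLCB1, PLCB4, RGS7, RGS8, RGS9, RGS11 and RGS17. Neuronal markers moved with them. The general neuron list, 6 of whose 7 tested genes had this order, summed to 4674 to 4784 CPM in C1, C2 and C3 and 425 to 883 CPM in the others. The Purkinje cell list summed to 3499.8 to 4339 CPM against 402 to 486 CPM, and PCP2 had 0 counts in C4 and C5. The 11 genes with C4, C5 and C6 highest were GNAI3, GNA13, GNB3, GNB4, GNG5, GNG8, GNG10, GNG12, ADCY2, RGS4 and RGS5. All 11 hormone cell markers had that order too. So did 6 of 7 tested immune markers, 3 of 5 folliculostellate and epithelial markers and 3 of 6 endothelial markers. The part of these cell types in either set of levels was not tested.

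**Figure D2:**
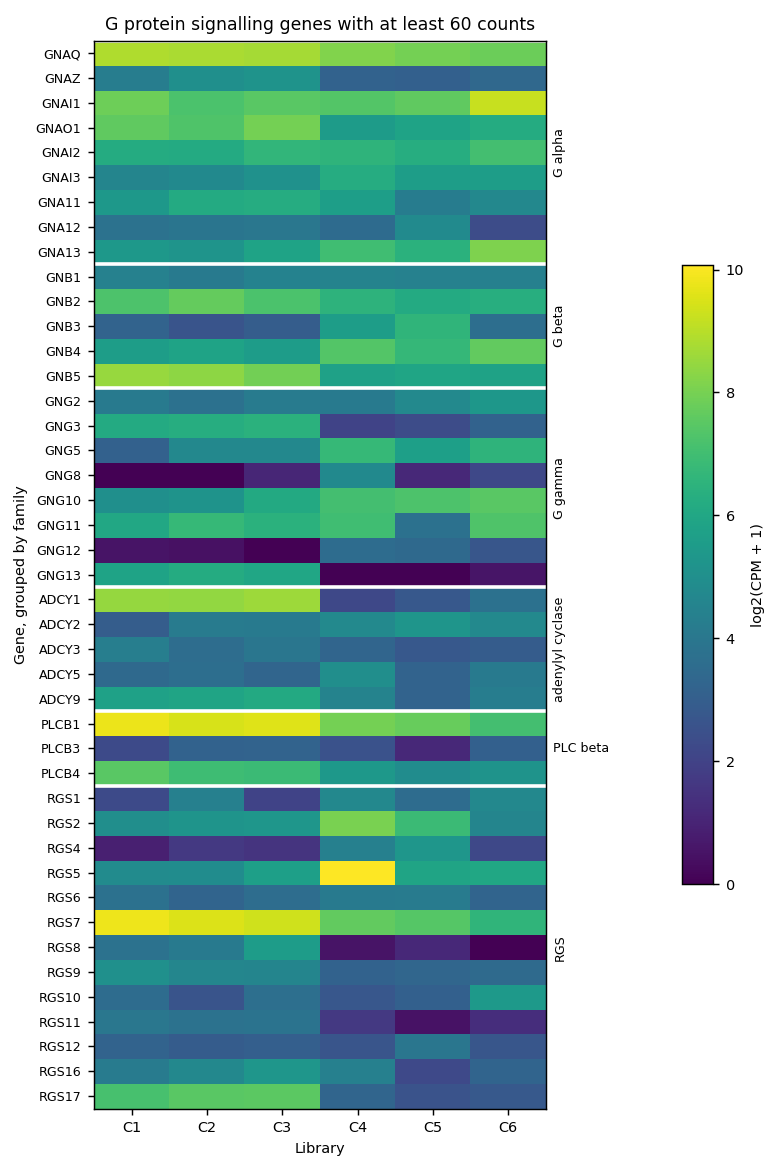
Level of the 43 tested genes, as log2(CPM + 1), in each library (columns), grouped by family (rows). ADCY1, GNG3, GNG13, RGS7 and RGS17 are brighter in C1, C2 and C3, GNB4, GNG5 and GNG10 in C4, C5 and C6, and RGS5 stands out in C4 at 1075 CPM.

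Among alpha subunits, GNAQ, the Gq gene that couples receptors to phospholipase C beta, had the highest TPM in every library. TPM are the authors' values corrected for length, the scale used here to compare genes with each other. Whether counts of these full-length reads grow with gene length, as that correction assumes, was not tested. GNAQ stood at 241, 218, 214, 243, 214 and 95.5 TPM. Its level was 463, 446, 424, 285, 251 and 221 CPM, highest in C1 and lowest in C6 by 2.10-fold (95% interval 1.88 to 2.35). Without C6 the ratio was 1.84, under the minimum of 2, and in TPM C6 alone was low. GNA11, its close relative in the same class, was at 39.9, 70.99, 73.4, 49.5, 17.8 and 24.7 CPM. It was lowest in C5, and the libraries C1, C2 and C3 did not lie apart from C4, since C4 exceeded C1. The other Gq genes were nearly unread: GNA14 had 0, 1, 0, 3, 2 and 8 counts and GNA15, a gene of blood cells, 1, 0, 1, 1, 0 and 1.

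The inhibitory class of alpha subunits, Gi, Go and Gz, lowers cyclic AMP. GNAO1, the Go gene and an abundant G protein of brain, was at 195, 157, 246, 45.5, 56.6 and 71.7 CPM. Its ratio was 5.41 (95% interval 4.39 to 6.72), with every one of C1, C2 and C3 above C4, C5 and C6. GNAI1 was at 228, 149, 179, 165, 193 and 601 CPM. C6 stood alone, and without it the ratio fell from 4.05 to 1.54, under the minimum of 2. GNAI3 had the opposite order to GNAO1, at 23.2, 26.3, 33.3, 74.4, 47.9 and 47.4 CPM, highest in C4, and without C4 its ratio of 3.21 became 2.07. GNAI2 was at 72.04, 71.4, 98.4, 93.2, 76.9 and 131 CPM, a ratio of 1.84 (95% interval 1.52 to 2.23) that did not reach 2. In TPM its order turned, with 63.3, 35.9, 76.4, 37.3, 36.9 and 29.6 TPM, so that C6 went from the highest to the lowest library. GNAZ, whose product is resistant to pertussis toxin, was low throughout, at 18.4, 31.1, 35.6, 7.88, 7.44 and 9.59 CPM.

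GNAI1 and GNAO1 changed places relative to each other within the libraries. Per length, GNAO1 exceeded GNAI1 in C1, C2, C3 and C5 (58.3 against 35.1 TPM in C1), whereas GNAI1 exceeded GNAO1 in C4 and C6 (80.3 against 22.5 TPM in C6). The count of GNAI1 was 0.728 times that of GNAO1 in C3 (95% interval 0.645 to 0.821) and 8.39 times in C6 (7.04 to 10.1). In C1 it was 1.17 times (1.03 to 1.33) and in C5 3.41 times (2.81 to 4.15), so counts and TPM gave opposite orders there. Such a ratio within 1 library does not depend on how libraries are scaled. The whole Gi, Go and Gz class took 49.02, 43.3, 51.01, 44.9, 49.97 and 61.8% of the alpha subunit counts in the 6 libraries, a range that is widened by C6 (95% Wilson interval 60.01 to 63.6%).

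The third class, G12 and G13, is known for its effects on cell shape and movement. GNA13 was at 40.7, 36.6, 55.6, 127, 84.7 and 277 CPM, highest in C6, and differed by 7.56-fold (95% interval 6.10 to 9.45), or 3.47-fold without C6. Together with GNA12, at 12.9, 14.3, 14.8, 10.5, 27.3 and 4.04 CPM, it made up 4.90, 5.07, 6.05, 15.97, 14.7 and 20.2% of alpha subunit counts. The share was lower in C1, C2 and C3 than in the others, also in TPM, where it was 1.18, 1.60, 1.74, 3.99, 6.89 and 6.47%. GNA12 did not follow this order, with its highest level in C5 and its lowest in C6. Its ratio of 6.76 was 3.66 without C5 and 2.60 without C6. GNAL, the olfactory and striatal gene of the stimulatory Gs class, had 2, 3, 3, 1, 1 and 2 counts. GNAS, the main Gs gene, was not analysed here, so that the Gs class is not described.

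Several marker lists were highest in C6, as GNAI1 and GNA13 were. All 4 tested genes used of the oligodendrocyte and Schwann cell list had their highest level in C6, with a summed level of 5166 CPM there and 4.55 to 181 CPM in the other 5 libraries. MAG, a myelin glycoprotein gene, was not read in C5. The immune list was also highest in C6, at 975 CPM against 159 to 486 CPM, and was above C1, C2 and C3 in C4 and C5 too. The folliculostellate and epithelial list summed to 9545 CPM in C6 against 471 to 4534 CPM, and in C6 nearly all of it was S100B. The astrocyte list summed to 677 CPM in C6 against 25.6 to 659 CPM, with C3 close to C6. Outside C6 the astrocyte and the folliculostellate and epithelial lists did not follow GNA13. Both were lowest in C4 and C5, where GNA13 was above its levels in C1, C2 and C3. The part of these cells in the alpha subunit levels was not tested.

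The beta subunits divided between GNB5 and the rest. GNB5 is the divergent member of the family, which pairs with RGS proteins of the R7 subfamily in place of a gamma subunit. It was at 361, 327, 240.3, 53.4, 59.9 and 55.00 CPM, with a ratio of 6.75 (95% interval 5.58 to 8.23) and its 3 highest values in C1, C2 and C3. Per length it led its family in every library, but took 89.99, 86.7, 84.3, 42.3, 33.2 and 46.04% of the beta subunit TPM, so the lead narrowed in C4, C5 and C6. By counts GNB5 did not lead there, with 122, 145 and 109 counts against 378, 248 and 397 of GNB4. GNB2 also had C1, C2 and C3 highest, at 152, 207, 146, 89.3, 69.4 and 78.7 CPM. In TPM the ratio of GNB2 fell to 1.47 and this order was lost.

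GNB4 and GNB3 had the opposite order. GNB4, a broadly expressed conventional beta subunit, was at 48.03, 55.98, 45.8, 165, 102 and 200.3 CPM. GNB3, the beta subunit of cone photoreceptors and taste cells, was at 8.15, 5.12, 6.81, 47.3, 95.5 and 11.6 CPM. C5 was 18.6-fold above C2 (95% interval 10.9 to 34.6). Without C5 the ratio was 9.23, and within C4, C5 and C6 alone the ratio was still 8.23. The 11 markers of hormone cells, 10 of them highest in C5, rose with GNB3 from C6 to C5, from a summed 47655 to 304448 CPM. Across the larger step to C6 from C1, C2 and C3, where the list summed to at most 195 CPM, GNB3 changed little. It was at 11.6 CPM in C6 against 8.15 CPM in C1, with overlapping 95% Wilson intervals (7.73 to 17.4 and 5.22 to 12.7 CPM). The part of the hormone cells in the level of GNB3 was not tested. GNB1 did not differ detectably at this depth, at 20.6, 16.1, 21.2, 21.9, 20.7 and 20.2 CPM (ratio 1.36, 95% interval 0.888 to 2.09, chi-square adjusted p = 0.741), from 40 to 56 counts a library.

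Gamma subunits, small proteins that carry a lipid anchor at their C terminus, had the highest median ratio of the 6 families, 13.1. All 8 that were tested differed, where 80.9% of all features did. GNG3, GNG8, GNG12 and GNG13 passed the count minimum almost wholly through the libraries in which they were high, so both values describe the tested genes only. GNG3, a neuronal gamma subunit, was at 71.2, 76.8, 85.9, 3.06, 4.13 and 8.07 CPM, 28.03-fold higher in C3 than in C4 (95% interval 13.4 to 70.5). GNG13, known from taste cells and retinal bipolar cells, was at 56.6, 72.1, 60.5, 0, 0 and 0.505 CPM. Its counts were 132, 197, 160, 0, 0 and 1, so that C2 was at least 54.9-fold higher than C4, with its count of 0 set to 3 counts, or 1.31 CPM. Both genes were high in C1, C2 and C3 and at or under 8.07 CPM elsewhere.

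The opposite order was held by GNG5, GNG10, GNG12 and GNG8, of which the first 3 are broadly expressed. GNG10 was at 31.3, 34.8, 69.2, 131, 153 and 181 CPM and GNG5 at 7.72, 24.9, 24.97, 105, 50.4 and 92.9 CPM. GNG5 differed by 13.7-fold (95% interval 8.46 to 23.5), and differed among C1, C2 and C3 too, where C1 had 18 counts. Without C1 the ratio was 4.24. GNG5 and GNG10 have processed pseudogenes in human, and how the counting treated such copies in sheep is not given in the sources used here. GNG12 was sparse, with 1, 1, 0, 25, 24 and 11 counts. GNG8, first known from olfactory and vomeronasal neurons, was read almost wholly in C4, with 0, 0, 3, 60, 3 and 7 counts. Without C4 it had too few counts for a test.

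GNG11, whose product is found in many tissues, had a pattern of its own, at 63.9, 108, 86.3, 126, 12.4 and 154 CPM. It was low in C5 alone, and its ratio of 12.5 (95% interval 8.55 to 18.8) became 2.42 without it. In the other 5 libraries it stayed between 63.9 and 154 CPM. GNG2 was at 16.7, 12.4, 17.03, 16.6, 26.04 and 38.9 CPM, highest in C6. Per length, GNG11 was the leading gamma subunit in every library except C5, where GNG10 led with 59.4 TPM against 14.4 TPM. The remaining genes were near the limit of detection, with at most 14 counts of GNG7 and 8 of GNG4 in any library, and GNG14 had 0 counts throughout.

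The summed endothelial markers were also lowest in C5, the library with little GNG11, but their genes did not move as one. The list summed to 31.8 CPM in C5 and to 84.4 to 197 CPM elsewhere. FLT1, at 6.61 CPM in C5 against 24.1 to 109 CPM, made most of this difference from C1, C2 and C3, and CLDN5 had 0 counts in C5. PECAM1, EMCN and KDR were higher in C5, at 7.44, 7.03 and 6.20 CPM, than in any of C1, C2 and C3. The pericyte, smooth muscle and fibroblast list summed to 94.6 CPM in C5, near the 117 CPM of C1, where GNG11 was 63.9 CPM. Their part in the level of GNG11 was not tested.

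**Figure D3:**
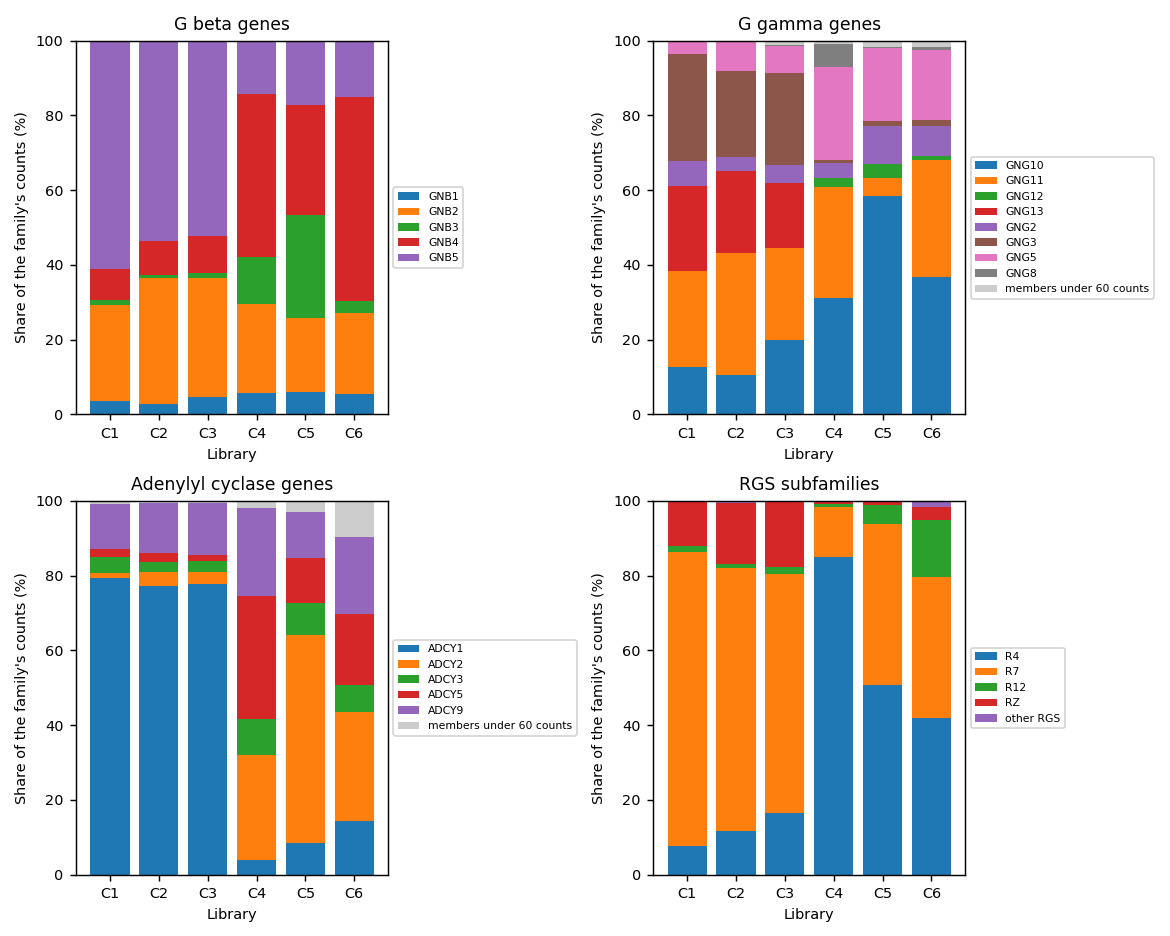
Share of each family's counts, in percent, taken by each gene (G beta, G gamma and adenylyl cyclase) or each subfamily (RGS) in each library; light grey marks genes under 60 counts. GNB5, GNG3, GNG13 and ADCY1 fill much of their bars in C1, C2 and C3 and little in C4, C5 and C6, and the R4 subfamily of RGS genes reaches 84.9% in C4. Counts are not divided by length, so only the same gene should be compared between bars.

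In CPM, an adenylyl cyclase gene held the largest measured ratio of the 43 genes. ADCY1, the calmodulin-stimulated neuronal enzyme, was at 356, 342, 385, 3.50, 5.79 and 12.6 CPM. C3 was 110.0-fold above C4 (95% interval 55.6 to 255), or 66.6-fold above C5 without C4, and C1, C2 and C3 lay within a ratio of 1.13 of each other. In TPM it stood at 30.2, 29.00, 43.98, 2.05, 2.84 and 1.85 TPM, a ratio of 23.7, and RGS11 (205), RGS4 (112) and RGS5 (97.7) had the largest measured TPM ratios. ADCY1 took 79.3, 77.2, 77.7, 3.83, 8.54 and 14.3% of the cyclase counts. ADCY9, a widely expressed cyclase, had the same order at 53.2, 58.5, 67.7, 21.4, 8.27 and 18.2 CPM, with a ratio of 8.19 that was 3.73 without C5. ADCY3, the cyclase of olfactory cilia, was at 18.9, 10.98, 14.4, 8.75, 5.79 and 6.56 CPM. In TPM the ratio of ADCY3 was 1.63 and C4 was highest.

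ADCY2, an enzyme that beta-gamma dimers stimulate together with Gs, had the opposite order, at 6.86, 17.2, 16.6, 25.8, 37.6 and 25.7 CPM. Its ratio was 5.48 (95% interval 3.20 to 9.99), and C1 was below C2 and C3 by a ratio of up to 2.51. Without C1 the ratio over the libraries was 2.26. ADCY5, which Gi and calcium inhibit, was at 9.86, 11.3, 8.70, 30.2, 8.27 and 16.7 CPM, highest in C4. Without C4 the ratio was 2.01 and no longer passed the test (chi-square adjusted p = 0.0652). Per length, ADCY9 led in C1, C2, C3, C4 and C6, and ADCY2 in C5, at 35.8 against 10.7 TPM. The other 5 cyclase genes were sparse, ADCY6 with 3 to 7 counts, ADCY7 with 7 counts in C6 and 0 elsewhere, and ADCY4, ADCY8 and ADCY10 with at most 4.

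Among phospholipase C beta genes, PLCB1 took the most counts in every library. PLCB1 was at 869, 697, 764, 252, 212 and 131 CPM and PLCB4, the form known from Purkinje cells and retina, at 178, 123, 116, 40.7, 28.9 and 35.3 CPM. Both had their highest level in C1 and all of C1, C2 and C3 above the rest, with ratios of 6.62 (95% interval 5.82 to 7.56) and 6.17 (4.78 to 8.06). Without C6 the ratio of PLCB1 was 4.10. The share of PLCB1 in the family's counts was 82.7, 84.2, 86.03, 84.7, 87.4 and 75.1%. Outside C6 it lay within 82.7 to 87.4%. C6 differed more per length, where PLCB1 took 88.7, 86.8, 86.1, 86.5, 90.2 and 67.4% of the family's TPM and PLCB4 11.3, 13.2, 13.9, 13.5, 9.80 and 32.4%. The count of PLCB1 was 3.71 times that of PLCB4 in C6 (95% interval 2.84 to 4.91) and 7.33 times in C5 (5.70 to 9.55). PLCB3 was low at 3.86, 8.05, 8.32, 4.81, 1.24 and 7.57 CPM (chi-square adjusted p = 0.00496), and no longer passed without C5 (adjusted p = 0.207). PLCB2, the enzyme of blood and taste cells, had at most 1 count.

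PLCB1 and the RGS gene RGS7 stood high among named features on the TPM scale. By TPM, PLCB1 ranked 74, 112, 87, 152, 135 and 527 among all named features, and RGS7 ranked 47, 59, 61, 125, 122 and 227. By counts they ranked lower, between 117 and 1063 for PLCB1 and between 112 and 1548 for RGS7. Their ratio of TPM to CPM was above the library's median ratio, by 3.43 to 6.93 times for PLCB1 and 7.62 to 9.46 times for RGS7. Their high rank thus depends on the length correction.

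The RGS family is sorted by sequence into subfamilies. The R7 proteins bind GNB5 and act on Gi and Go, the R4 proteins are small and act on Gi and Gq, the RZ proteins act best on Gz and its relatives, and the R12 proteins carry further domains or, as RGS10, only the RGS domain. All 13 RGS genes tested differed between libraries, where 80.9% of all features tested did. The median ratio was 10.3, against 4.31 over all features. RGS4, RGS8, RGS11 and RGS17 passed the count minimum mainly through the libraries in which they were high, so both values describe the tested genes only.

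RGS7, the main R7 gene by reads, was at 898, 736, 649, 199, 168 and 94.9 CPM, highest in C1 and lowest in C6. The ratio was 9.46 (95% interval 8.15 to 11.05), or 5.34 without C6. All of C1, C2 and C3 were above the rest, and C4, C5 and C6 also differed among themselves, by 2.10-fold. Its partner GNB5 did not follow it within C4, C5 and C6, where GNB5 stayed within a ratio of 1.12. The count of RGS7 was 1.72 (95% interval 1.36 to 2.20) to 3.73 (3.05 to 4.59) times that of GNB5. RGS9, of striatum and photoreceptors, was at 32.6, 23.8, 23.1, 7.88, 9.09 and 10.1 CPM. RGS11, known from retinal bipolar cells, had 35, 35, 35, 5, 1 and 3 counts, and its ratio of 36.3 became 9.91 without C5. Both genes had C1, C2 and C3 highest in CPM. RGS6 did not, at 12.4, 8.42, 10.97, 16.6, 17.4 and 8.58 CPM with a ratio of 2.06 and an adjusted p of 0.0154 by the chi-square test. With C5 left out its ratio was 1.98 and the adjusted p 0.0620, and with C2 left out the adjusted p was 0.0570.

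RGS17, an RZ gene of brain, was at 139, 179.7, 184, 8.75, 4.96 and 6.06 CPM, 37.2-fold higher in C3 than in C5 (95% interval 21.1 to 72.4). RGS8, an R4 gene known from Purkinje cells, was at 12.9, 16.5, 46.5, 0.438, 1.24 and 0 CPM, and its counts of 30, 45, 123, 1, 3 and 0 put C3 at least 30.7-fold above C6. C3 exceeded C1 by 3.62-fold, so that RGS8 also differed among C1, C2 and C3, and without C3 it was at least 10.9-fold higher in C2 than in C6. Purkinje cell markers did not move with it there, with a summed level of 4339, 3891 and 3499.8 CPM in C1, C2 and C3.

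**Figure D4:**
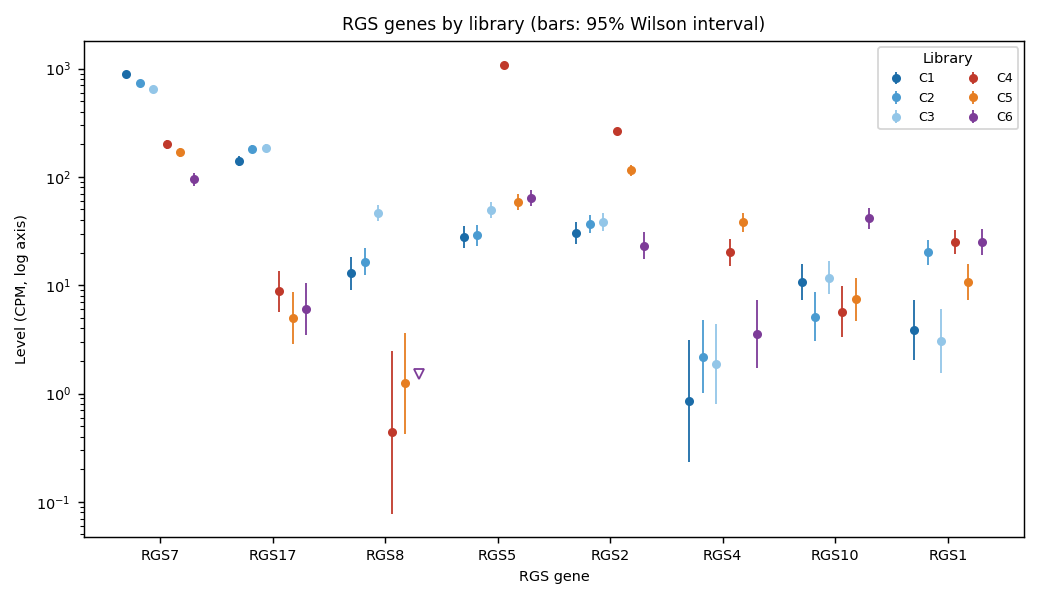
Level of 8 RGS genes in each library, in CPM on a log axis; points are libraries and bars 95% Wilson intervals for counting error, and the open triangle marks the level of 3 counts where the count was 0. RGS7, RGS17 and RGS8 are highest in C1, C2 and C3, RGS5 and RGS2 in C4, RGS4 in C5, and RGS10 in C6 at 41.4 CPM.

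The remaining R4 genes differed in which library was highest. RGS5, a gene of pericytes and vascular smooth muscle, was at 27.9, 28.9, 49.9, 1075, 58.7 and 63.6 CPM. C4 was 38.6-fold above C1 (95% interval 30.2 to 50.2), and without C4 the ratio was 2.28. In C4 RGS5 took 64.8% of all RGS counts but 7.42% of the RGS TPM, of which RGS7 took 69.8%. All 7 tested markers of pericytes, smooth muscle and fibroblasts were also highest in C4, at a summed 7662 CPM against 94.6 to 718 CPM elsewhere. Of the 2 markers not tested, NOTCH3 had only 1 count in all, in C4, and PDGFRB had 19, with 10 in C4 and 0 in C5. Their part in the level of RGS5 was not tested.

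RGS2, which acts chiefly on Gq and is induced rapidly by many stimuli, was at 30.4, 36.6, 38.6, 263, 115 and 23.2 CPM. It was highest in C4 and lowest in C6, by 11.3-fold (95% interval 8.38 to 15.6), or 4.97-fold without C4. C6 lay below C1, C2 and C3, so that RGS2 did not have C4, C5 and C6 as its 3 highest libraries. RGS4, another regulator of Gq and Gi, was at 0.858, 2.20, 1.89, 20.1, 38.02 and 3.53 CPM. It was highest in C5, 44.3-fold above C1 (95% interval 11.9 to 372) where it had 2 counts. Its ratio was 23.5 without C5 and 20.1 without C1. RGS16 was at 17.2, 24.9, 38.2, 20.1, 3.72 and 8.58 CPM, highest in C3 and lowest in C5 by 10.3-fold (95% interval 5.20 to 23.1). Without C3 this ratio was 6.69, and without C5 4.45. Per length, RGS4 exceeded RGS5 in C5 (41.6 against 18.9 TPM), and RGS5 exceeded RGS4 in C4 (82.9 against 20.6 TPM).

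RGS1 and RGS10 are both abundant in immune cells, RGS1 in lymphocytes and RGS10 in microglia and other myeloid cells. RGS1 was at 3.86, 20.1, 3.03, 24.9, 10.7 and 25.2 CPM, with C6, C4 and C2 high and C1 and C3 low, and C2 was 6.65-fold above C3. RGS10 was at 10.7, 5.12, 11.7, 5.69, 7.44 and 41.4 CPM, highest in C6, with a ratio of 8.08 (95% interval 4.55 to 15.4) that was 2.29 without C6. Of 7 tested immune markers 4 were highest in C6 and 3 in C5, and the list summed to 183, 217, 159, 476, 486 and 975 CPM. None of the 8 was at 0 in any library, and their part was not tested. RGS12 was at 8.15, 6.59, 7.19, 5.25, 14.5 and 5.55 CPM (chi-square adjusted p = 0.00468), and without C5 its ratio of 1.55 no longer passed the test (adjusted p = 0.755). Of the sparse RGS genes, RGS20 and RGS22 reached 14 and 13 counts in a library and RGS18 6. RGS3, RGS13 and RGS19 had at most 4, and RGS14 and RGS21 had 0 counts throughout.

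Further genes of the pathway were taken from a list of 58 partners, of which 53 were analysed and 24 had enough counts. Of these 21 differed (80.9% of all features did), 13 with C1, C2 and C3 as the 3 highest libraries (38.8% of all features) and 3 with C4, C5 and C6 (22.8% of all features). The median ratio was 5.16. Phosphodiesterases, which break down cyclic nucleotides, had the highest median levels. PDE10A was at 2215, 1205, 1227, 541, 478 and 406 CPM, PDE4D at 742, 382, 481, 449.5, 185 and 129.7 CPM and PDE4B at 367, 243, 254, 28.5, 18.2 and 114 CPM. The largest ratios belonged to PCP2, PDE1A and PDE4B. PCP2, a Purkinje cell protein that binds Gi and Go, was at 199, 182, 162, 0, 0 and 1.01 CPM and at least 152-fold higher in C1 than in C4. PDE1A, a calmodulin-dependent phosphodiesterase, was at 96.5, 99.5, 122, 45.1, 1.65 and 144 CPM, low in C5 alone. PDE4B differed by 20.2-fold between C1 and C5. RIC8A, the chaperone that folds alpha subunits of Gi, Gq and G13, did not differ detectably, at 14.2, 16.8, 21.6, 19.3, 18.2 and 17.7 CPM (chi-square adjusted p = 0.528); it was named after its values were seen.

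The 2 scales of the deposited data did not give the same differences between libraries. The median ratio of TPM to CPM, over 12333 features with counts in all libraries, was higher by 0.10, 0.30, 1.12, 1.17 and 0.75 log2 units in C2 to C6 than in C1. In TPM the count of genes with C1, C2 and C3 highest was 12, all among the 17 found in CPM, and the genes that left were ADCY3, GNAQ, GNAZ, GNB2 and RGS11. The order with C4, C5 and C6 highest was held by 19 genes in TPM, among them all 11 found in CPM. With TPM divided by the library's median ratio the counts were 18, with GNAI2 joining all 17, and 11, of which 10 were shared with CPM. The shares of all features with these orders are not given here for either TPM scale. The counts in TPM are therefore not a result about these genes.

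Relative to the library's median, the ratio of TPM to CPM varied by less than 1.5 times over the libraries in 28 of the 43 genes, as in GNB2 with 0.483, 0.486, 0.492, 0.526, 0.541 and 0.554. It varied by more than 2 times in 12 genes, ADCY1, ADCY2, GNAI2, GNAQ, GNB5, GNG8, PLCB1, RGS5, RGS8, RGS11, RGS12 and RGS17. For RGS17 it was 7.24, 6.85, 5.05, 14.96, 26.96 and 13.05. The log2 ratio of C3 to C5 for RGS17 was 5.22 in CPM and 1.93 in TPM, with 273 TPM in C3 and 71.6 TPM in C5. RGS5 stood at 0.128, 0.129, 0.130, 0.150, 0.603 and 0.147, with C5 apart, so that 142 counts in C5 and 126 in C6 went with 18.9 and 3.72 TPM. For GNAI2 the run was 3.70, 1.98, 2.65, 0.778, 0.896 and 0.567. For these genes the scale decides the size of a difference, and for GNAI2 its direction.

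Within C4, C5 and C6, the libraries in which hormone genes were abundant, the 18 genes that differed had their highest level in C4 in 9 cases, in C5 in 3 and in C6 in 6. Those highest in C4 were ADCY5, ADCY9, GNA11, GNG5, GNG8, RGS2, RGS5, RGS7 and RGS16. GNA12, GNB3 and RGS4 were highest in C5, the library with the most hormone gene counts. GNA13, GNAI1, GNG2, GNG11, RGS1 and RGS10 were highest in C6. In the same 3 libraries GNAQ stayed within a ratio of 1.29, GNB1 within 1.08 and GNB5 within 1.12. Among C1, C2 and C3, the 6 genes that differed were GNG5, GNG10, RGS8 and RGS16, highest in C3, and ADCY2 and RGS1, highest in C2. How all features that differed within these sets divide over their libraries is not given here. Both splits therefore only describe the genes named.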

How the data were processed

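Pituitary-labelled tissue of 6 sheep libraries was read as amplified full-length cDNA, with no molecular identifiers named, per the labels' protocols. The deposited tables give estimated counts and TPM per gene for each library, with minimap2 2.17-r941 named per the submitters' processing notes. For the quantifier, build, annotation and filters, nothing was found: not given in the sources used here. Estimated counts, of which 24.0 to 29.8% were not whole in a library, were rounded. Of 26071 rows, 4 held text instead of values and were left out. Genes were matched by symbol, and 63 of 63 were found in the RefSeq gene table (assembly ARS-UI_Ramb_v3.0), used for gene order only.

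CPM were taken over the total of each library. Features with at least 60 summed counts were tested by chi-square for equal shares over the libraries, and called where the Benjamini-Hochberg adjusted p was below 0.05 and the ratio 2 or more. A lowest count of 0 was set to 3 counts of that library. Since the labels give no groups, edgeR's quasi-likelihood test has no contrast, and edgeR 4.0.16 and DESeq2 1.42.0 gave scaling factors only. Intervals are 95% Wilson for levels and shares and exact conditional for ratios, and cover only the counting error of independent reads. Amplified reads are not independent molecules, so the intervals and the chi-square test can understate the counting error. The statistics ran in Python 3.11.15 with scipy 1.17.1, and R 4.3.3 computed the factors. The test was checked on simulated independent counts, which cannot show the effect of amplification.

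Every gene with at least 60 counts was named with its levels, and others with their counts. Of the partner genes, the 3 with the highest median CPM and the 3 with the largest ratio were named. Members and lists were chosen with earlier results of these data known. Alternatives were other scalings, TPM, thinning to the smallest library, other count minimums and ratios, a pseudocount of 1 CPM and leaving out libraries. Leaving out a gene's highest or lowest library, and TPM divided by the library's median ratio of TPM to CPM, were chosen after seeing the data. A marker gene of the oligodendrocyte and Schwann cell list was left out and is not reported here.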

Additional observations from a re-analysis of the deposited data

Results flagged for a closer look

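In 7 of the 43 tested genes, 1 library lay far from the other 5, with a gap to its neighbour, as a share of the whole range, above Dixon's critical value for 6 values. Chance gives such a gap in about 1 in 20 groups of replicates, and these libraries are not known to be replicates of a group. The share of all tested features with such a gap is not given here, so 7 of 43 is not a result about these genes. RGS5 in C4, at 1075 CPM, stood apart by 0.966 of the range, and GNG8 in C4, at 26.26 CPM, by 0.865. GNAI1 in C6, at 601 CPM, stood apart by 0.824, and RGS10 in C6, at 41.38 CPM, by 0.818. RGS12 in C5, at 14.47 CPM, and RGS8 in C3, at 46.54 CPM, stood apart by 0.686 and 0.646. GNB1 in C2 was the low one, at 16.1 CPM (0.706 of the range), in a gene whose libraries did not differ beyond counting error (chi-square adjusted p = 0.741).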

How the results depend on the processing

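The number of genes that differed over the 6 libraries, 41, stayed between 36 and 46 under the 9 other settings tried. The 36 were out of 38 tested genes at a minimum of 120 counts, and the 46 out of 60 at a minimum of 1 count. With each library left out in turn the number was between 37 and 41. Among C1, C2 and C3 alone, the 6 genes became 10 in TPM, 15 with a ratio of 1.5 and 3 with a ratio of 3. The 11 genes with C4, C5 and C6 highest became 19 in TPM and 13 with DESeq2 size factors, which GNAI2 and GNG2 joined. The shares of all features under these other settings are not given here. The share of the Gi, Go and Gz class in alpha subunits was 39.1, 32.6, 44.9, 31.1, 34.3 and 55.0% in TPM, which divides by length. For GNAI2 the log2 ratio of C6 to C2 was -0.28 in TPM and -0.92 in TPM divided by the library's median ratio, the reverse of CPM, and the cause was not tested. ADCY3, GNB2 and RGS9 no longer reached a ratio of 2 in TPM between the libraries that were highest and lowest in CPM, nor RGS6 with a pseudocount of 1 CPM, and GNG12 had too few counts once libraries were thinned. Under edgeR's TMM and DESeq2 factors no tested gene changed direction or call over the 6 libraries, although they moved all genes of C5 up by 0.21 and 0.31 log2 units and those of C3 by -0.10 and -0.16. Adding GNAS to the alpha subunits was not run, since GNAS was not analysed here. No paired analysis was possible because the labels give no groups and no replicate numbers.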

Other observations

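Some of these genes are neighbours in the RefSeq gene order of sheep, and their levels can be set side by side. RGS5 and RGS4 have 1 coding gene between them. RGS5 was highest in C4 at 1075 CPM and RGS4 in C5 at 38.02 CPM. RGS16 and RGS8 have no coding gene between them, and both were highest in C3, at 38.2 and 46.5 CPM, but in C4 RGS16 stood at 20.1 CPM and RGS8 at 0.438 CPM. In the run RGS2, RGS13, RGS1, RGS21 and RGS18, with no coding gene between neighbours, RGS2 was lowest in C6 at 23.2 CPM, where RGS1 was highest at 25.2 CPM, and the other genes of the run had at most 6 counts in a library. GNA13 and RGS9 are direct neighbours with opposite orders, GNA13 higher in C4, C5 and C6 and RGS9 in C1, C2 and C3. PLCB1 and PLCB4, with 1 coding gene between them, both had C1, C2 and C3 highest. The strand used in counting is not given in the sources used here, so reads of overlapping neighbours could not be told apart.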
